A study of Caenorhabditis elegans with 2 samples.

Results

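The genes described here are 8 members of the Notch signalling pathway of Caenorhabditis elegans: the receptors glp-1 and lin-12, the ligands lag-2 and apx-1, the protease gene sup-17, the nuclear effectors lag-1 and sel-8, and the early target ref-1. They were taken as a named list from 19973 protein-coding genes. The window of a gene was its body and 5 kb on either side on build ce11 (WBcel235). All 8 names matched 1 gene each in the annotation, and no member was filtered out.

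Binding of NHR-2, a transcription factor of the nuclear hormone receptor family, was measured by ChIP-seq (sequencing of DNA that is precipitated with a protein) in a single group with 2 biological replicates. The material was whole animals at mixed embryonic stages, both sexes pooled and age unknown, of strain OP99, genotype unc-119(ed3) III; wgIs99. wgIs99 is the integrated transgene, so both replicates carry it together with the unc-119 mutation. The labels call the target eGFP-nhr-2 in one field and the antibody nhr-2 in another. The control they name was not analysed here, nor was any library without the transgene. There is no second condition, so the members were described along the genome and set beside the other genes. Since whole embryos were used, binding in a few cells and weaker binding in many cannot be told apart. The strongest region within 5 kb of nhr-2 had a signal of 2151, rank 2 of 1861 in the thresholded list, rank 1 in replicate 1 and rank 2 in replicate 2. Both replicates carry wgIs99, so any copies of the locus in it and binding at the gene itself cannot be told apart, and this value does not check the target.

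Notch is a transmembrane receptor that is cut when a ligand of the DSL family on a neighbouring cell binds it. Its intracellular domain then enters the nucleus and forms an activator complex with a DNA-binding protein of the CSL family and a glutamine-rich coactivator. In the worm embryo, maternal GLP-1 receives signals from neighbouring blastomeres and sets the fates of descendants of the anterior blastomere, and LIN-12 acts in later inductions and lateral decisions. GLP-1 and LIN-12 can replace each other in part.

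Of the 8 members, 7 had at least 1 peak summit of the thresholded list in their window, and sup-17 had none. Over all protein-coding genes the share with such a summit was 15.7% (3143 of 19973). A thresholded peak is one in the authors' list made by the irreproducible discovery rate (IDR), which compares ranks of regions between replicates. The list held 1861 peaks, 1843 of them on the nuclear chromosomes. Of these 1843, 1830 had a candidate region in both replicates. A listed peak can still differ between them, as did one 5890 bp upstream of lag-2, at ranks 1256 and 17320. A place in the list therefore does not show that the replicates agreed on that single peak. Long genes have wide windows: among genes with a body of 5 kb or more the share was 23.8%, and 5 of 5 such members had a summit. Among genes with a shorter body it was 14.2%, and 2 of 3 such members had one. This division by length was added after the values were seen. The members were chosen with results of these data known, so the counts are given with no test. In the stronger 50% of the list, 4 of the 8 members had a summit, lin-12, apx-1, lag-1 and sel-8, against 7.75% of all genes.

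The 7 genes held 12 thresholded summits. Over the 149 kb of the 8 windows this came to 8.06 summits per 100 kb, against 1.84 per 100 kb over the nuclear chromosomes. A pair or more of summits lay in the windows of 4 members, lin-12 with 3 and glp-1, apx-1 and sel-8 with 2 each. Over all genes that share was 3.81%. These 4 members all have bodies of 5 kb or more, and the share among genes of that length is not given here. Of the 12 summits, 5 were upstream of the gene, 7 were in introns and 0 were in exons. For 11 of the 12 the nearest protein-coding 5′ end was that of the member itself. Shares over all nuclear summits are not given for these placements, so they describe the 12 summits and do not set them apart. Counted by gene, 7 of the 8 members had the nearest 5′ end to at least 1 summit, against 6.76% of all protein-coding genes.

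**Figure D1:**
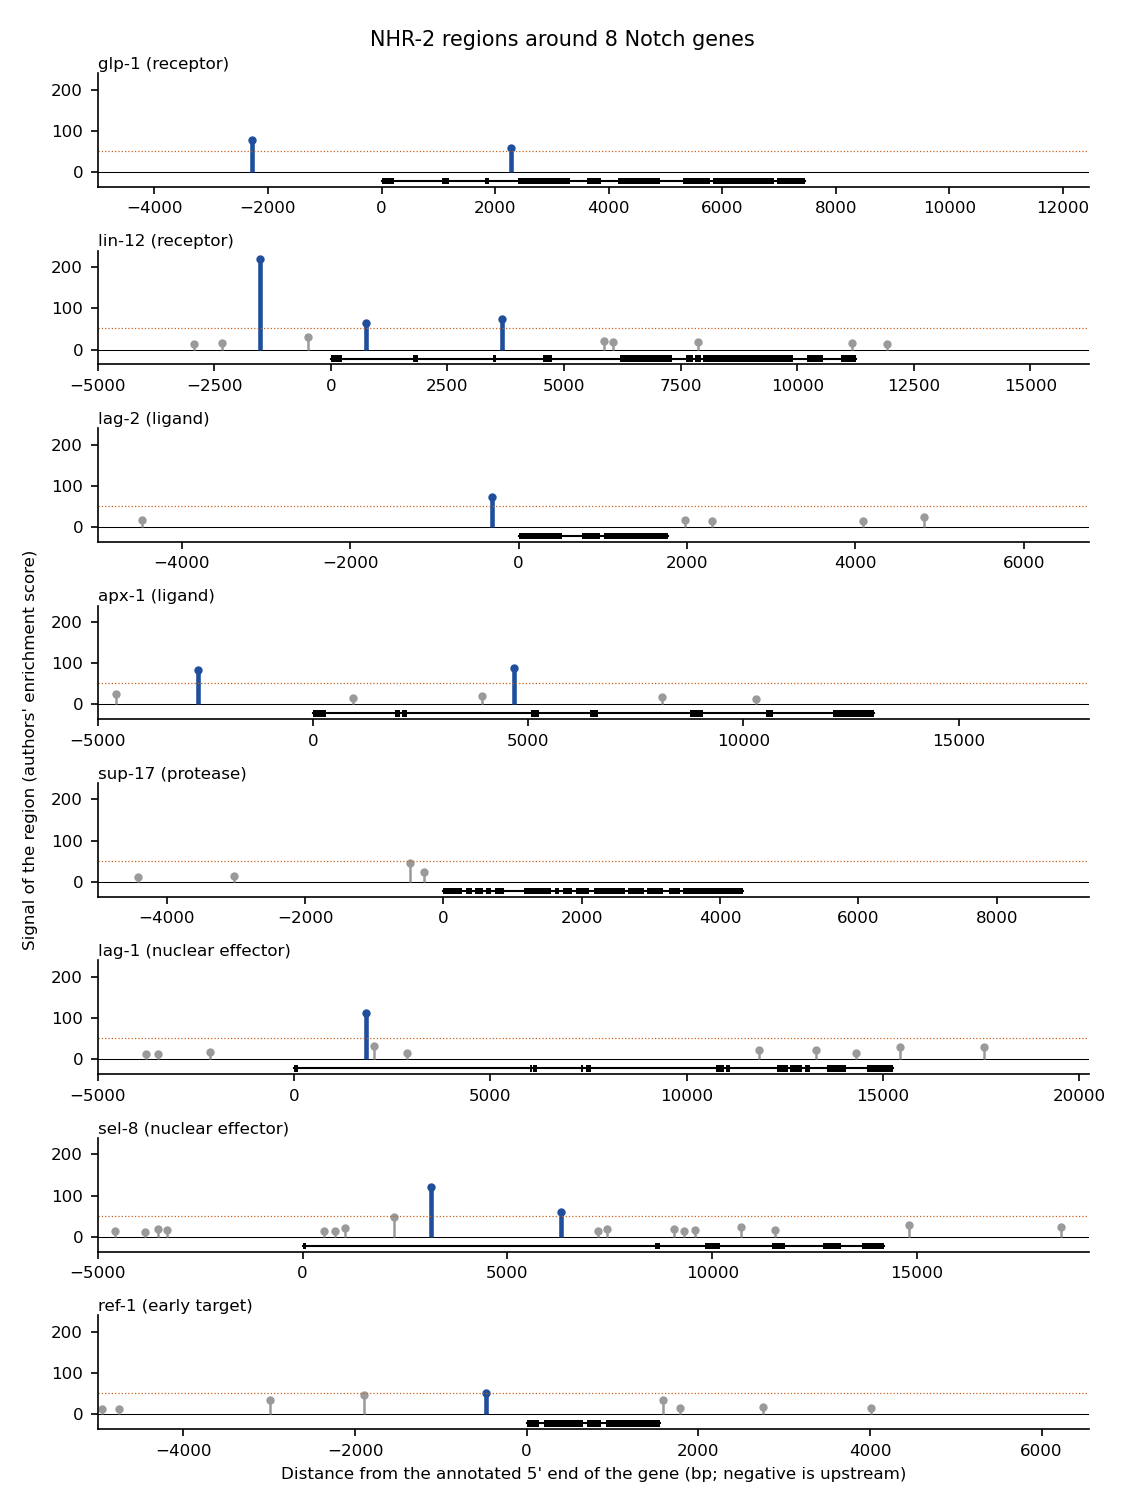
Regions of the series candidate list in the window of each of the 8 genes. The x axis is the distance in bp from the annotated 5′ end, the y axis the signal of the region; blue stems are thresholded peaks, grey stems weaker regions, black boxes the exons of the longest transcript, and the dotted line the lowest signal in the thresholded list, 51.65. The tallest stem stands upstream of lin-12 at 219, and sup-17 has no blue stem.

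The signal is the authors' enrichment score for a region. It was used to order regions within a list and for medians over the series lists. Read numbers are not in the lists and the depth is unknown. The replicates were therefore compared by rank, and their signals are printed only as deposited. The peaks at these genes were of middling strength. Their median signal was 76.8, against 83.0 over all 1843 nuclear peaks, and 4 of the 12 were above that value. Ranks ran from 191 to 1828 of 1861. The windows held 69 regions of the series candidate list in all, of which the 12 thresholded peaks were 17.4%, against 6.15% of candidates over the nuclear chromosomes; the other 57 were weaker. Counting the strongest region of any kind in each window, the median over the 8 members was 83.5, against 23.7 over all protein-coding genes and 82.4 over the genes with a thresholded summit. Genes with no candidate region counted as 0, and 82.9% of all genes held one. Wide windows hold more sequence, and 5 of the 8 members have bodies of 5 kb or more. The median among genes of that length is not given here.

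**Figure D2:**
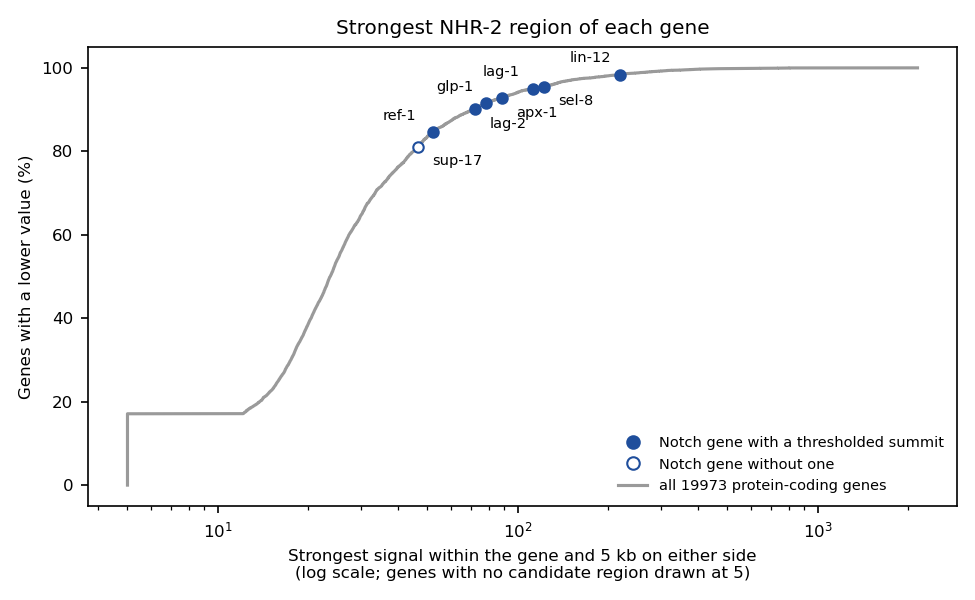
The share of protein-coding genes with a lower value (y axis, percent) against the strongest signal within the gene and 5 kb on either side (x axis, log scale). Points edged in blue are the 8 Notch genes, filled where there is a thresholded summit and open at sup-17, and the grey line is all 19973 genes. The members run from sup-17, above 81.1% of genes, to lin-12, above 98.4%. Windows differ in width between genes and were not matched for it.

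The lin-12 receptor gene (WBGene00003001) lies on chromosome III from 9060221 to 9071472 on the minus strand. It held the strongest peak of the 8 genes. This peak had its summit at 9072998, 1526 bp upstream of the lin-12 5′ end, and its signal was 219 (rank 191). It had rank 244 with a signal of 108 in the replicate 1 list and rank 168 with 107 in the replicate 2 list. At 236 bp it was also narrower than the other 11 peaks, which were 380 bp wide. A second peak, in intron 3 with its summit 3660 bp downstream of the 5′ end, had a signal of 75.2 and ranked 867 and 1856 in replicates 1 and 2. The remaining peak, in intron 1 at 757 bp, had a signal of 65.1 and ranked 1737 and 2165. The window of lin-12 also held 8 weaker regions, the strongest of them, at 31.4, 490 bp upstream.

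The glp-1 receptor gene (WBGene00001609) lies 20768 bp from lin-12, on the plus strand of chromosome III from 9092241 to 9099698, with 6 protein-coding genes between them. Its window held 2 series candidate regions, the fewest of the 8 genes, and both were thresholded. The upstream peak, with its summit at 9089953 and 2288 bp from the glp-1 5′ end, had a signal of 78.4. It lay closer to mrpl-44, which encodes a mitochondrial ribosomal protein, 578 bp upstream of that gene, and was the only 1 of the 12 with another gene nearest. It was also the peak on which the replicates differed most, with rank 702 in replicate 1 and rank 4169 in replicate 2. The other glp-1 peak was in intron 3, 2273 bp downstream of the 5′ end, at a signal of 59.5. There replicate 2 ranked the peak higher, with rank 1970 in replicate 1 and rank 1338 in replicate 2. The summits in the replicates were 2 bp apart at this intronic peak and 31 bp apart at the upstream one.

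The sequences under the receptor peaks that held a LAG-1 type word are given here, since LAG-1 is the DNA-binding protein of this pathway. Each is 151 bases on the strand of the gene (ce11, chromosome III, RefSeq WBcel235 sequence) with the summit in the middle. Capitals mark the searched words, on either strand: AGGTCA, the core of many nuclear receptor sites, GAGAGA, a GA repeat, CAGGTG, an E-box of bHLH and zinc-finger proteins, as well as the E-boxes CAGCTG and also CACGTG. Further words were GTGGGAA, the usual site of CSL proteins, with its variant ATGGGAA. The upstream lin-12 peak is chrIII:9072923-9073073, the lin-12 intron 1 peak chrIII:9070640-9070790 and the upstream glp-1 peak chrIII:9089878-9090028.
lin-12 upstream: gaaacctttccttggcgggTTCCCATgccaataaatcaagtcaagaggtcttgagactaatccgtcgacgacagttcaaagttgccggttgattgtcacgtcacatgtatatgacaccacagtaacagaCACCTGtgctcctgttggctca
lin-12 intron 1: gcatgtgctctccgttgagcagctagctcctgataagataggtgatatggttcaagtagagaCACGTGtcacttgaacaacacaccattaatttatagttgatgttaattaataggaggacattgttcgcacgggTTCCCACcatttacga
glp-1 upstream: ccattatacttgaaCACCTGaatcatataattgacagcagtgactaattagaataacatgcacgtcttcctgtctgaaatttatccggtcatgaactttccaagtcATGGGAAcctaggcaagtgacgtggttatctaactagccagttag
The upstream lin-12 window held ATGGGAA, read on the other strand, with its centre 53 bp from the summit, and CAGGTG with its centre 56.5 bp away. The intron 1 window held CACGTG 10.5 bp from the summit and GTGGGAA 63 bp from it. The upstream glp-1 window held ATGGGAA 34 bp from the summit and CAGGTG 58.5 bp away. None of these 3 windows held AGGTCA. The intron 3 windows of both receptors held none of the 7 words.

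The ligand genes lie near each other too, on the plus strand of chromosome V with 20080 bp between them. LAG-2 and APX-1 are DSL ligands, and APX-1 is the maternal ligand of an early signal from the germline precursor blastomere to its neighbour. The lag-2 gene (WBGene00002246), from 3188343 to 3190115, had 1 thresholded summit in its window, at 3188031. That summit was 312 bp upstream of the 5′ end, in the promoter window, which ran from 1000 bp upstream to 200 bp downstream. It had a signal of 72.2 and rank 1181. The replicates placed it apart, at rank 2354 with a signal of 24.5 in replicate 1 and at rank 706 with 48.0 in replicate 2. A further thresholded peak lay just outside the window, 5890 bp upstream of lag-2 with a signal of 55.4; lag-2 was its nearest 5′ end, and it ranked 1256 in replicate 1 and 17320 in replicate 2.

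The apx-1 gene (WBGene00000168), from 3210196 to 3223221, held 2 thresholded peaks of similar signal. The stronger, at 88.5, had its summit at 3214872 in intron 3 of the longest transcript, 4676 bp downstream of its 5′ end. The gene has 6 annotated transcripts, and this summit was 379 bp upstream of the 5′ end of a shorter one. The weaker, at 82.9, was 2663 bp upstream of the gene. The replicates lay closer together here than at lag-2: the intronic peak ranked 1100 and 819 in replicates 1 and 2, and the upstream peak 970 and 910. Both ligand windows are given because that of apx-1 was the only 1 of the 12 with AGGTCA and that of lag-2 is 1 of the 2 promoter peaks. They are chrV:3214797-3214947 and chrV:3187956-3188106 on the plus strand, 151 bases each, with capitals as above.
apx-1 intron 3: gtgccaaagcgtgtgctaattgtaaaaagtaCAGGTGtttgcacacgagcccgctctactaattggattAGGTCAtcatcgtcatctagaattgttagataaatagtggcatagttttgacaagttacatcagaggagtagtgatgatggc
lag-2 promoter: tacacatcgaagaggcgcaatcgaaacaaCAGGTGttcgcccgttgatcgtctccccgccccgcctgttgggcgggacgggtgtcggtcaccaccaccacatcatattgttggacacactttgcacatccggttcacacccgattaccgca
AGGTCA in the apx-1 window had its centre 3.5 bp from the summit, and CAGGTG 41.5 bp from it. The lag-2 window held CAGGTG 43.5 bp from the summit and none of the other 6 words. The upstream apx-1 window held none of the 7.

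Peaks at the genes of the nuclear complex were in their first introns. LAG-1 is the CSL protein, which binds DNA, and SEL-8 is the coactivator that joins it, with a role like that of Mastermind in flies. The lag-1 gene (WBGene00002245), on the plus strand of chromosome IV from 6095407 to 6110655, held 1 thresholded summit, at 6097252 in an intron of 5917 bp. It was 1845 bp downstream of the 5′ end and had rank 598, at a signal of 112. The replicates gave it ranks 636 and 576. The sel-8 gene (WBGene00004765), on the minus strand of chromosome III from 3612951 to 3627142, held its 2 thresholded summits in an intron of 8533 bp. The one at 3624001 had a signal of 122 and rank 539, and ranks 571 and 570 in replicates 1 and 2. It was the second strongest of the 12, and its summit differed by 1 bp between the replicates. The other, 6319 bp downstream of the 5′ end, had a signal of 61.2 and ranked 1994 and 2236; it was 2292 bp upstream of the 5′ end of the other annotated sel-8 transcript.

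The strongest window of each of these 2 genes is given here because they were the only 2 of the 12 with GAGAGA. They are chrIV:6097177-6097327 on the plus strand and chrIII:3623926-3624076 on the minus strand, with capitals as above.
lag-1 intron 1: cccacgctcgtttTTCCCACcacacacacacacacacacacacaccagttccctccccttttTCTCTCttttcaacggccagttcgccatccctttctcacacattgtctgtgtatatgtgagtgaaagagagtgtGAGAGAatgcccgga
sel-8 intron 1: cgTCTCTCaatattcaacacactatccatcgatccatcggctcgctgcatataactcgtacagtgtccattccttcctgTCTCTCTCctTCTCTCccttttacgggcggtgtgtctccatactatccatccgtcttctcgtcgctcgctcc
In the sel-8 window the word was read 4 times on the other strand, as TCTCTC, and 2 of these overlapped; the closest had its centre 6.5 bp from the summit. The lag-1 window held it once on each strand, 10.5 and 63.5 bp from the summit, and GTGGGAA 59 bp from it. The second sel-8 peak held none of the 7 words. The window of sel-8 held 17 weaker regions, the most of the 8 genes, and the strongest of them, at 48.4 and rank 2044, was in the same intron.

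The target gene ref-1 (WBGene00004334) encodes a protein with paired bHLH domains, and its transcription in the early embryo is turned on by Notch signals. It lies on the plus strand of chromosome II from 10218471 to 10220022. Its single thresholded summit, at 10217999, was 472 bp upstream of the 5′ end, in the promoter window and inside the noncoding RNA gene T01E8.10, which is on the minus strand. The signal of 52.2 and rank 1828 put it near the end of the list, whose lowest signal was 51.65; the next region outside had 51.63. In the replicates it ranked 2232 and 1987. The strongest 3 of its 8 weaker regions had signals of 47.4, 35.6 and 35.0 and lay 1897 and 2989 bp upstream of the 5′ end and 1584 bp downstream of it. The ref-1 promoter peak held none of the 7 words.

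The protease gene sup-17 (WBGene00006324), which encodes the ADAM family metalloprotease that cuts the receptor outside the membrane, was the member without a thresholded peak. It lies on chromosome I from 8792964 to 8797295 on the plus strand. Its strongest region lay 478 bp upstream of the 5′ end and within the noncoding RNA gene DY3.11. At 46.4 it had rank 2189 in the series list, below the end of the thresholded list. In the replicates its rank was 3122 and 2812. A second weaker region lay 276 bp upstream, with a signal of 24.6, and overlapped the same regions of the replicates. The nearest thresholded summit was 9071 bp upstream, with a signal of 68.1, and the nearest 5′ end to it was that of mfb-1.

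In all, 2 of the 8 members, lag-2 and ref-1, had a thresholded summit in the promoter window, against 4.16% of all protein-coding genes. With the 5′ ends of every annotated transcript, apx-1 made 3, against 4.65%. With the strongest 1861 regions of replicate 1 in place of the thresholded list, 0 members had a summit in the promoter window (3.80% of all genes), and with those of replicate 2 there was 1 (4.55%). By the same lists, lag-2 and ref-1 had no summit in the window of 5 kb in replicate 1, where 5 members had one (15.4% of all genes), and ref-1 none in replicate 2, where 6 had one (17%).

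**Figure D3:**
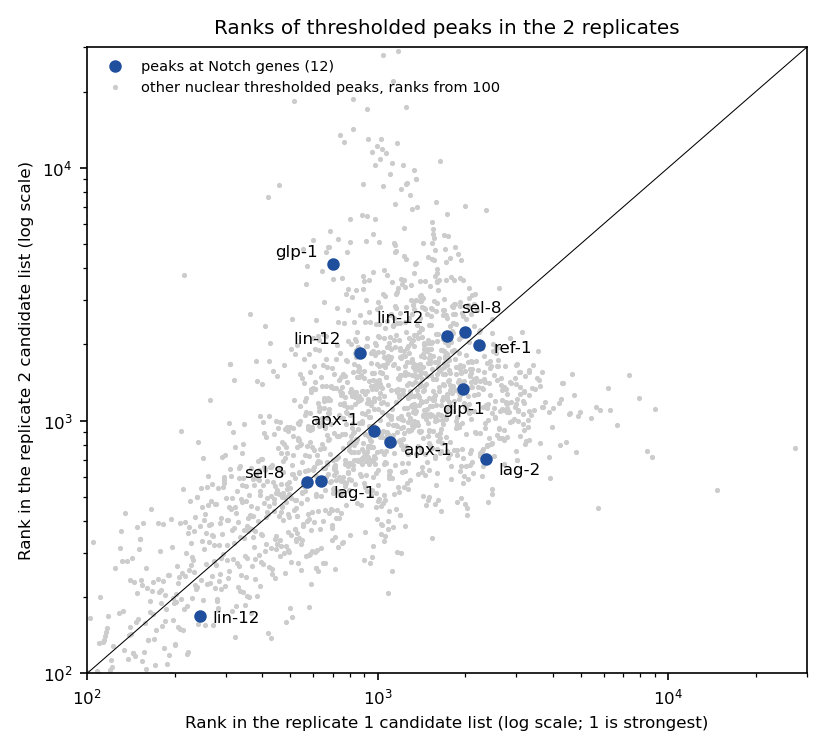
Ranks of nuclear thresholded peaks with a region in both replicates, in the replicate 2 candidate list (y axis, log scale) against the replicate 1 list (x axis, log scale). Both axes start at rank 100, so peaks nearer the top of either list are not drawn. Blue points are the 12 peaks at Notch genes, grey points other peaks, and the line marks equal ranks; the upstream glp-1 peak, at 702 and 4169, lies farthest from it among the 12.

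All 12 peaks overlapped a candidate region in each replicate, and 11 were among the strongest 3000 of both, which was so for 88.3% of 1830 nuclear peaks with a region in both. The exception was the upstream glp-1 peak. With the length of the thresholded list as the cutoff, 6 of the 12 were among the strongest 1861 of both. Outside it in at least 1 replicate were both glp-1 peaks, the lag-2 and ref-1 peaks, the lin-12 intron 1 peak and the weaker sel-8 peak. The share of the 1830 peaks at that cutoff is not given here. The larger rank was a median of 1.29 times the smaller over the 12 peaks, with a highest value of 5.94, against a median of 1.57 over the 1830. Ranks were better in replicate 1 for 4 peaks and in replicate 2 for 8. Some of these differences were small, as at the stronger sel-8 peak with ranks 571 and 570. The same count over the 1830 peaks is not given here. Summits in the replicate lists were at most 92 bp from the series summit. Since the series list draws on both replicates, these values describe the peaks and are no separate test of them.

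The words were then counted over all 12 windows of 151 bases. AGGTCA was in 1 of 12, against 17.3% of all nuclear summits (15.6 to 19.1%, 95% exact Clopper-Pearson interval, counting error only) and 2.98% and 4.07% of windows 400 bp to their left and right. GAGAGA was in 2, against 30.0% of all nuclear summits and 8.52% and 9.06% of the windows to their left and right. CAGGTG was in 4, at lin-12, glp-1, apx-1 and lag-2, against 14.4% (12.8 to 16.1%). CACGTG was in 1, against 4.88% at all nuclear summits and 2.44% and 2.50% beside them. CAGCTG was in 0, against 6.35% and, beside them, 2.77% and 2.01%. A LAG-1 type word was in 4, at lin-12 in both the upstream and the intron 1 peak, glp-1 and lag-1. That share was 5.10% over all nuclear summits (4.14 to 6.21%) and 3.91% and 5.15% in the windows to their left and right, so these words were about as frequent beside summits as at them. With 12 windows, 3 of them from lin-12, these counts are a description, and a match is not a binding site. None of the words was in 5 of the 12, against 39.7% of all nuclear summits. The share of G and C in the 12 windows ran from 35.8% to 58.3% with a median of 49.0%, against a median of 45.0% over all nuclear summits.

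Further genes of the pathway were taken from a list of 52 names, of which lst-3 matched no annotated gene. Of the other 51, 16 had a thresholded summit within the gene body and 5 kb (31.4%, against 15.7% of all genes). Of 13 with a body of 5 kb or more, 8 had one, against 23.8% of all such genes, and of 38 shorter ones 8 had one, against 14.2%. A summit in the promoter window was found for 5 (9.80%, against 4.16%). That of tsp-12, 974 bp upstream, was nearer to the 5′ end of copg-1, at 371 bp. In 8 of the 16, the nearest protein-coding 5′ end to each of the summits was that of another gene. The strongest region of the 51 genes had a median signal of 30.8, against 83.5 for the 8 listed members and 23.7 for all genes. These medians were not divided by gene length.

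**Figure D4:**
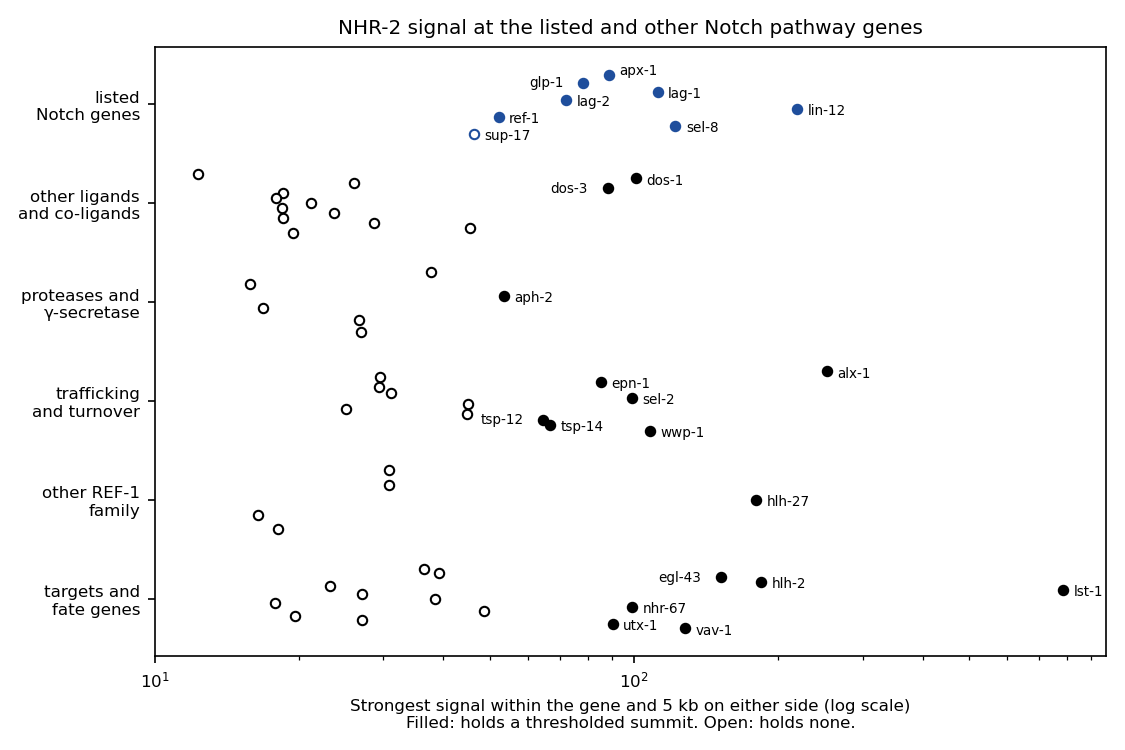
Strongest signal within the gene and 5 kb on either side (x axis, log scale) for the 8 listed Notch genes, in blue, and 51 other genes of the pathway, in black, by class. Filled points hold a thresholded summit and open points none; the open points of the other genes run from 12.3 to 48.7.

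The shares among ligands, co-ligands and membrane proteases were near that of all genes. Of 13 other ligands and co-ligands 2 had a thresholded summit (15.4%, against 15.7%), the co-ligand genes dos-1 with a signal of 101 and dos-3 with 88.4, and both summits were nearest to another gene, cya-1 and zip-2. Of 6 protease and γ-secretase genes 1 had one (16.7%), aph-2, with 53.6, nearest to ears-1. The presenilin genes sel-12 and hop-1 had none, and their strongest regions had signals of 26.9 and 16.8.

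Trafficking and turnover genes had a thresholded summit in 6 of 12 cases (50%, against 15.7% of all genes). Of these 6, alx-1, wwp-1, sel-2 and tsp-14 have bodies of 5 kb or more, for which the share of all genes was 23.8%. The summits at tsp-12 and tsp-14 were nearest to other genes, copg-1 and arrd-23. The strongest was at alx-1, the ALIX homologue, with a signal of 253, 8307 bp downstream of its 5′ end and beyond the gene; the nearest 5′ end, at 8207 bp, was that of R10E12.2. At wwp-1, which encodes a HECT ubiquitin ligase, the stronger of 2 peaks had 108 and was 222 bp upstream of the 5′ end. At sel-2, which encodes a BEACH domain protein, the peak had 99.0 and was 406 bp upstream.

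Of the 5 other REF-1 family genes, 1 (20%, against 15.7% of all genes) had a thresholded summit, hlh-27, with a signal of 180, and its nearest 5′ end was that of ins-13. Among reported targets and genes of Notch-dependent fates, 6 of 15 had one (40%, against the same 15.7%). Of these 6, vav-1, nhr-67, egl-43 and utx-1 have bodies of 5 kb or more, for which the share of all genes was 23.8%. The highest signal, 786, lay 3029 bp upstream of lst-1, a germline stem cell regulator, and 2857 bp from hsp-12.1, the nearest 5′ end. The bHLH gene hlh-2 held 5 peaks, all nearest to itself, with signals from 56.4 to 184. The guanine nucleotide exchange factor gene vav-1 had 128 in an intron, and nhr-67, a nuclear receptor gene of the tailless type, 99.2 in an intron. The zinc-finger gene egl-43 had 152, nearest to dtmk-1, and the histone demethylase gene utx-1 had 90.2, 269 bp upstream of its 5′ end. The remaining 4 genes with a peak, epn-1, tsp-14, tsp-12 and aph-2, had signals from 53.6 to 85.2 and were named after their values were seen, as were sel-12 and hop-1.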

How the data were processed

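ChIP-seq of eGFP-nhr-2 was deposited as region lists for 2 replicates and for the series. Per the texts deposited with the libraries, the candidate lists came from ChIP alignments and a control, and the list of thresholded peaks by IDR from those of the series and of each replicate. The signal of each region, column 7, is the authors' deposited enrichment score, with a scaling not given in the sources used here. The deposited −log10 q values were 2.17 for all 12 peaks, rounded to 2 decimals, and served no ranking. Neither aligner nor peak caller nor read depth is given in the sources used here; the labels give a fragment size range of 150 to 350 bp. The ce10 lists were not used here.

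Positions are 1-based on ce11, and genes are the 19973 protein-coding genes of Ensembl release 115 (WBcel235), whose chromosome lengths hold every region. A summit counted for each gene whose window held it. A replicate's rank is that of its strongest region that shared 1 bp or more with the peak. Exon and intron numbers are those of the longest transcript. Scripts ran in Python 3.11.15 with pandas 2.3.3, and counting and word search were tested on made-up data. No test was run, since there was 1 group. The members, the lists, the words and the rule for named genes (all members, the gene with the nearest 5′ end to each member summit, and up to 12 further pathway genes by signal) were chosen with earlier results of these data known. Alternatives covered the window, summit against overlap, list strength, each replicate alone, merged summits, promoter size, transcript ends and word window.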

Additional observations from a re-analysis of the deposited data

How the results depend on the processing

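The counts kept within 1.5 times their value under 34 of 41 alternatives, and 14 of 16 ranks of a member's strongest region did so in single replicates; the 2 others were those of lag-2, at 2354 in replicate 1 and 706 in replicate 2, against 1181. With the stronger 50% of the thresholded list, 4 members had a summit (7.75% of all genes), with 4 summits in their windows, against 12; 4 summits anywhere in the genome had a member as nearest 5′ end, against 12 (11 in the windows and the lag-2 summit 5890 bp upstream), and 0 members had a promoter summit (1.55%). With the strongest 1861 regions of a single replicate, 0 (replicate 1) to 1 (replicate 2) members had a promoter summit, and 5 to 6 had a summit in the window. The summits in the member windows then fell from 12 to 9 in replicate 1 and to 8 in replicate 2. AGGTCA was in 2 of the 12 whole regions, against 25.7% of all nuclear ones. With 2 kb on either side 7 members had a summit (9.65% of all genes), and with 10 kb all 8 (25.1%). Whole-region overlap was not run for the nearest 5′ end, which is read from the summit. No paired analysis was possible because there was 1 group. Depth is unknown, so no counting error could be given for a signal.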
